A study of Drosophila melanogaster with 6 samples.

Results

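miR-252, miR-274 and miR-282 are *Drosophila* microRNAs whose levels in mutant ovaries had been seen to lie on one side of the control in 2 mutant lines. They were taken as all rows of the deposited table whose precursor is dme-mir-252, dme-mir-274 or dme-mir-282, both arms, which gave 6 of 474 rows. They were chosen by measured values, the difference of each mutant from w1118. In that difference, 10 of 150 tested rows (6.67%) passed an adjusted p of 0.05 with the same sign in both mutants, and miR-252-5p, miR-274-5p and miR-282-3p are among them. What is said of these rows in a mutant against w1118 is therefore a description. Adjusted p-values printed for them there, from edgeR or from the authors, come from the libraries that chose the rows and do not test the choice.

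A miRNA precursor is a hairpin cut by Drosha and Dicer, and one of its arms, 5p or 3p, is usually kept as the mature miRNA that guides Argonaute to messenger RNAs. miR-252 is known in *Drosophila* as a miRNA that responds to the steroid hormone ecdysone and whose 5p arm targets Abi, an actin regulator, in control of the cell cycle. miR-274 is known as a glial miRNA that is secreted in vesicles and targets the signalling inhibitor sprouty in tracheal cells and at synapses. miR-282 is known to affect viability, lifespan and egg production in flies, and the adenylate cyclase gene rutabaga is one of its targets.

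The libraries came from whole ovaries of 7-day-old adults, 2 for each of 3 genotypes. The control was w1118, a strain with a mutation of the white eye-colour gene, and the labels name it as the background of both mutants too. The wh7 line is mutant for wuho, whose product is a WD40 repeat protein with a role in germline cells. The mei-p26 line is mutant for mei-P26, a TRIM-NHL protein of the germline that works together with miRNA complexes, and for it the labels give no allele. Whether the duplicates came from separate groups of flies is not stated. The edgeR p-values given here set group differences against the spread between these libraries, estimated in part from all tested rows. That spread may be technical. Library totals ran from 144175 to 249262 counts, with both w1118 libraries among the 3 smallest. A list of miRNAs read here for the ovary (miR-318, miR-994, miR-989, miR-184 and bantam) was present, together at 189748 to 455255 CPM. CPM is the count scaled to a common library size after TMM normalization. The mutated messenger RNAs are not measured by miRNA libraries. Because these are bulk libraries, fewer cells of a type and less RNA per cell cannot be told apart.

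Nearly all counts of the 3 precursors came from 1 arm. The mir-252 hairpin gave 73 counts on its 5p arm and 3 on its 3p arm over the 6 libraries. From mir-274, 122 counts lay on the 5p arm and 0 on the 3p arm, which with an exact 95% binomial interval allows a 3p share of up to 2.98%. The mir-282 hairpin gave 9210 counts on the 5p arm and 911 on the 3p arm. Of the 6 rows, 4 passed the filter on low counts, namely miR-252-5p, miR-274-5p and both arms of miR-282. The rows miR-252-3p, with at most 2 counts in a library, and miR-274-3p, with none, did not pass it. The rows miR-252-5p and miR-274-5p had at most 1 count in a w1118 library, so that they passed only through the mutants and had to differ from the control.

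The genes lie apart from each other in the genome. In the current fly annotation, a later release than the build the submitters name, mir-252 is inside an intron of the noncoding RNA genes asRNA:CR17025 and asRNA:CR46354 on their strand. The mir-274 hairpin lies opposite to the strand of the protein-coding gene CG32085, within one of its introns. The mir-282 hairpin overlaps an exon of the noncoding RNA gene lncRNA:CR43626 on the same strand.

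miR-252-5p was close to undetected in the control ovary and present in both mutants. It had 1 count in w1118 replicate 1 and 0 in replicate 2, where a count of 0 allows up to 3 counts, 21.5 CPM. The wh7 libraries held 17 and 13 counts, or 116 and 58.5 CPM, and the mei-p26 libraries 20 and 22 counts, or 82.0 and 76.3 CPM. All 4 mutant libraries were above both control libraries, as were the libraries of wh7 for 34% of all tested rows and those of mei-p26 for 36%. The exact 95% Poisson interval of w1118 replicate 1 reached 41.6 CPM and overlapped that of wh7 replicate 2, which began at 31.2 CPM. These intervals and the floor of 3 counts cover counting error only. Over each group, the ratio of summed counts to w1118 was 21.6 in mei-p26, with a counting interval of 3.67 to 872. Set against w1118 replicate 2 alone, which had no count, the ratio for miR-252-5p was 3.78 in wh7 and 3.67 in mei-p26 with the floor of 3 counts in that library. Counting error in the mutant libraries is not in these ratios, so they are not lower limits of the difference. By rank, it was row 123 to 133 by count in the mutant libraries, which each had 212 to 224 rows with a count.

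miR-274-5p had the same counts in the control as miR-252-5p, 1 and 0. In wh7 there were 15 and 24 counts, or 102 and 108 CPM, and in mei-p26 26 and 56 counts, or 107 and 194 CPM. The 4 mutant libraries again lay above both control libraries, and mei-p26 replicate 2 stood above the other mutant libraries, which were within 102 to 108 CPM. The counting interval of that library, 147 to 252 CPM, overlapped those of the other 3. The ratio of summed counts to w1118 was 42.1 in mei-p26, with an interval of 7.35 to 1684. Against w1118 replicate 2 alone the ratio was 4.92 in wh7 and 7.16 in mei-p26, with the same floor and the same limit. The authors' deposited table gives miR-274-5p a fold of 51.7 in mei-p26 and 31.4 in wh7, and miR-252-5p a fold of 26.8 and 26.1. The adjusted p in the authors' deposited table is 0.0146 in mei-p26 and 0.0720 in wh7 for miR-274-5p, and 0.115 and 0.114 for miR-252-5p.

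**Figure D1:**
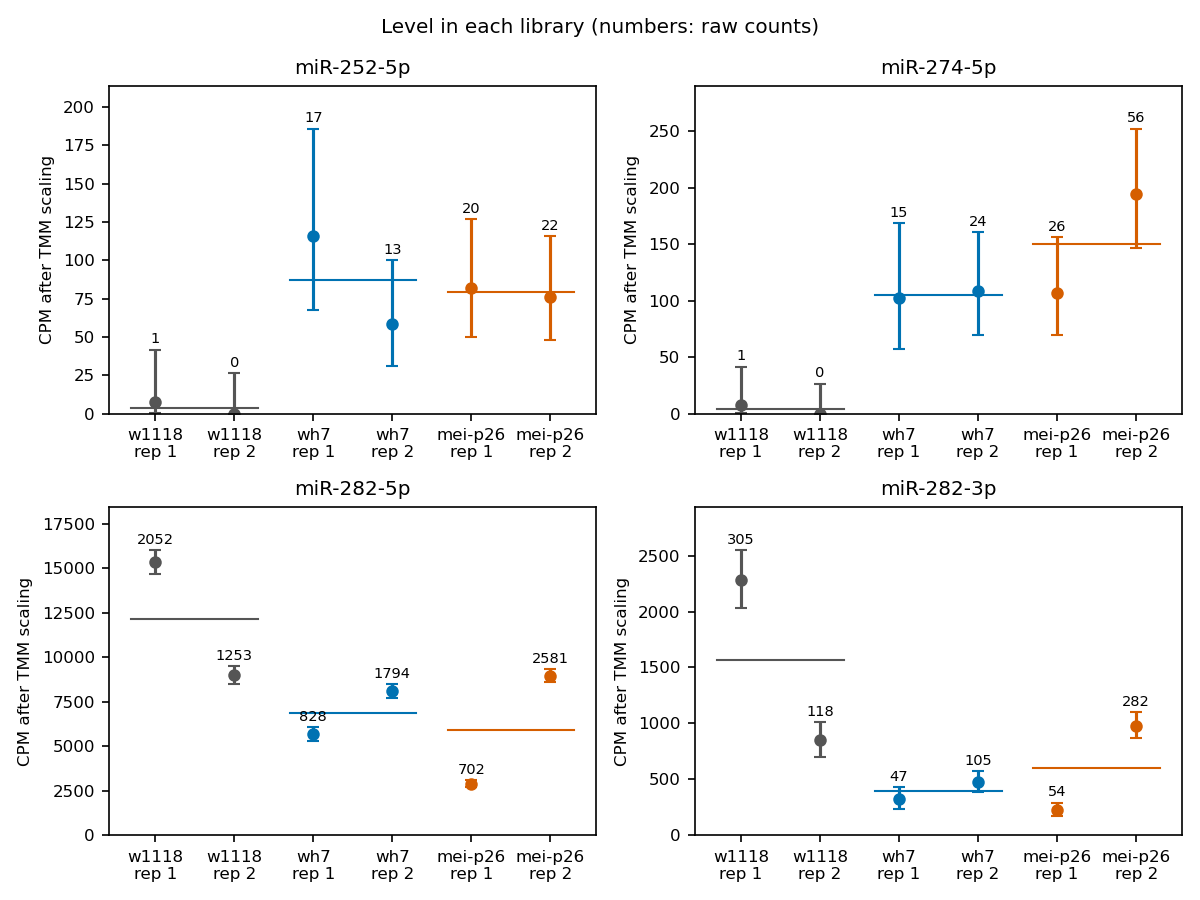
Level of the 4 tested rows in each library, in CPM after TMM scaling, with exact 95% Poisson intervals as bars, group means as horizontal lines and raw counts as numbers. The w1118 libraries have 1 and 0 counts of miR-252-5p and miR-274-5p, and for miR-282-3p mei-p26 replicate 2, at 978 CPM, lies above w1118 replicate 2, at 846 CPM.

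miR-282-5p was the abundant member, among the 44 rows with the most counts in every library. In w1118 it stood at 15328 and 8986 CPM from 2052 and 1253 counts. In wh7 it was at 5652 and 8079 CPM from 828 and 1794 counts, and in mei-p26 at 2880 and 8953 CPM from 702 and 2581 counts. After TMM scaling all 4 mutant libraries were below both control libraries, which held for 25.3% of all tested rows in wh7 and 29.3% in mei-p26. The higher mei-p26 library was nearly level with the lower w1118 library, and their order depends on the scaling. As counts over column totals, mei-p26 replicate 2 stood at 10355 CPM, above w1118 replicate 2 at 8691 CPM, so that the groups overlapped. The group means were 12157 ± 4484 CPM in w1118, 6866 ± 1716 CPM in wh7 and 5916 ± 4294 CPM in mei-p26 (SD, n = 2). The spread within mei-p26, 3.11 times between its libraries, was wider than the 1.71 times in w1118 and the 1.43 times in wh7.

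miR-282-3p, the minor arm, was at 2278 and 846 CPM in w1118, from 305 and 118 counts. It was at 321 and 473 CPM in wh7, from 47 and 105 counts, and at 222 and 978 CPM in mei-p26, from 54 and 282 counts. Both wh7 libraries were below both controls, while in mei-p26 the groups overlapped, since replicate 2 lay above w1118 replicate 2. A lower level in both mutants therefore holds for miR-282-3p in mei-p26 only as a fitted mean. In the authors' deposited table, the adjusted p of miR-282-3p is 0.000148 in wh7 and 0.686 in mei-p26, and that of miR-282-5p is 0.0362 and 0.662. Summed counts were 3.75 times higher in w1118 than in wh7 and 2.45 times higher than in mei-p26. Against w1118 replicate 2 alone these ratios were 2.05 and 1.34, and against w1118 replicate 1 alone 5.52 and 3.61.

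The choice was by direction in both mutants, and the threshold of an adjusted p of 0.05 was set here. At that threshold miR-282-3p was just inside with 0.0431 in mei-p26 (edgeR quasi-likelihood test). miR-282-5p was outside in wh7 with 0.155 and inside in mei-p26 with 0.0367 (the same test). Of the 4 tested rows, 3 passed in wh7, where 15.3% of all tested rows passed, and 4 in mei-p26, where 34% did. Those numbers restate the choice, and they were 1 and 2 with DESeq2 and 2 and 2 with total-count scaling. Under a filter on a mean count of at least 50, only the 2 arms of miR-282 were tested, and 0 passed in either mutant. In wh7 the number fell to 1 without w1118 replicate 2 or wh7 replicate 1 and to 2 without w1118 replicate 1, and in mei-p26 it fell to 2 when replicate 1 of any genotype was left out. The fitted log2 fold changes moved with single libraries. For miR-274-5p the log2 fold change in mei-p26 was 5.14 with all libraries, 3.96 without w1118 replicate 2 and 7.93 without w1118 replicate 1, where the remaining control has no count and the fitted value depends on the prior count. For miR-282-5p in wh7 it was -0.82 with all libraries, -0.27 without w1118 replicate 1 and -1.34 without w1118 replicate 2. For miR-282-3p in mei-p26 it was -1.37, and it was -0.51 without w1118 replicate 1 and -2.87 without mei-p26 replicate 2. For miR-282-5p in mei-p26 it was -1.04, and it was -0.44 without mei-p26 replicate 1 and -2.13 without mei-p26 replicate 2.

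**Figure D2:**
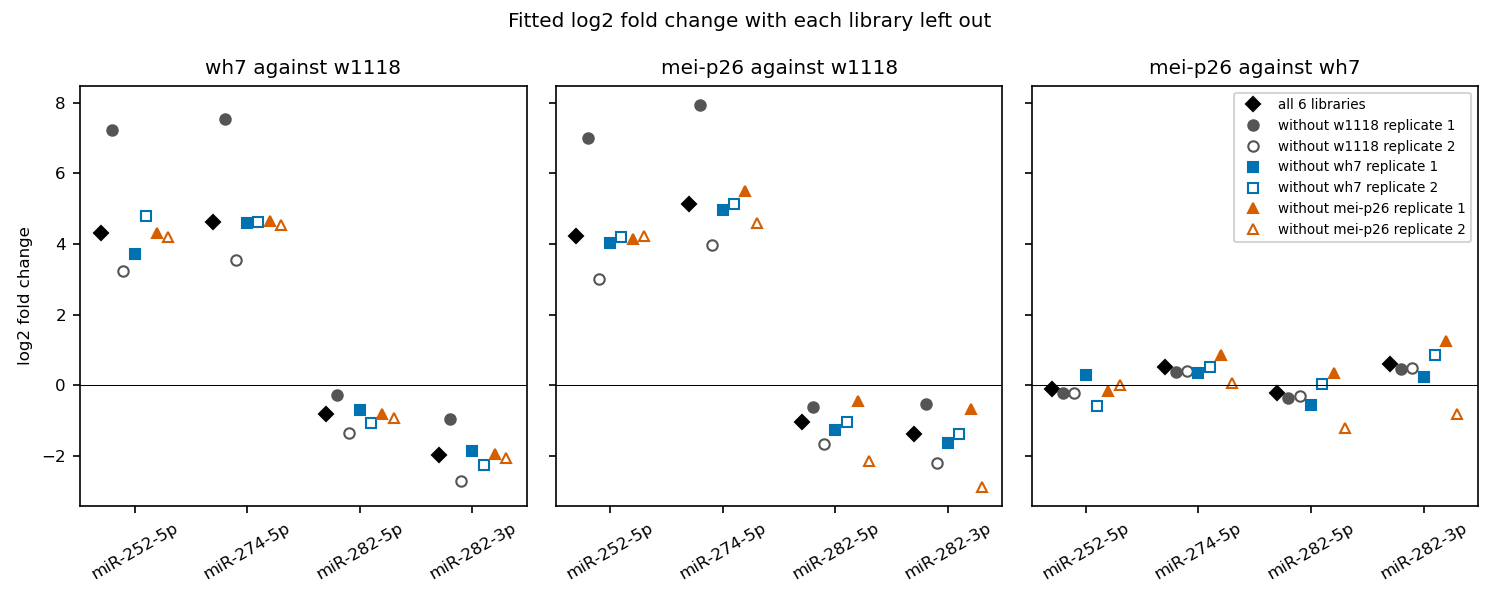
Fitted log2 fold change of the 4 tested rows in each comparison, with all 6 libraries (diamonds) and with each library left out in turn. Signs against w1118 are kept throughout, with values for miR-274-5p in mei-p26 from 3.96 to 7.93, whereas miR-282-3p in mei-p26 against wh7 runs from -0.81 to 1.26.

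The comparison of mei-p26 with wh7 was not itself used in the choice, but it draws on the same 4 mutant libraries and is not independent of it. Choosing rows on the same side of w1118 in both mutants favours rows in which the mutants are alike. The mutants did not separate on any of the 4 tested rows: 0 passed with edgeR, 0 had an unadjusted p under 0.05, and 0 passed with DESeq2 or limma-voom. Of all tested rows, 27.3% passed in this comparison with edgeR. Because of the choice, no conclusion is drawn from the members lying below that share. The level of miR-252-5p was 79.2 ± 4.05 CPM for mei-p26 and 87.3 ± 40.7 CPM for wh7 (SD, n = 2), a log2 fold change of -0.10 ± 0.59 (SE; edgeR quasi-likelihood test, adjusted p = 0.923) with a 95% interval of -1.33 to 1.13. miR-274-5p was at 150 ± 61.9 and 105 ± 4.02 CPM, a log2 fold change of 0.52 ± 0.53 (adjusted p = 0.526 with edgeR) and an interval of -0.60 to 1.63. The intervals leave room for differences of more than 2-fold between the mutants in either direction for miR-252-5p, and for a higher level in mei-p26 for miR-274-5p.

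For miR-282 the mutants also overlapped. miR-282-5p had a log2 fold change of -0.21 ± 0.37 in mei-p26 against wh7 (edgeR adjusted p = 0.726, interval -0.98 to 0.55), and miR-282-3p of 0.59 ± 0.52 (adjusted p = 0.449, interval -0.49 to 1.67). Both wh7 libraries of each arm lay between the lower and the higher mei-p26 library. This rests on the spread of mei-p26. Without mei-p26 replicate 1, miR-282-3p passed as higher in mei-p26 (log2 fold change 1.26 ± 0.38, edgeR adjusted p = 0.00433), and without mei-p26 replicate 2 its value was -0.81 ± 0.68 (adjusted p = 0.473). The 5p arm was at 0.36 without mei-p26 replicate 1 and at -1.21 without mei-p26 replicate 2 (edgeR adjusted p = 0.369 and 0.0728).

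**Figure D3:**
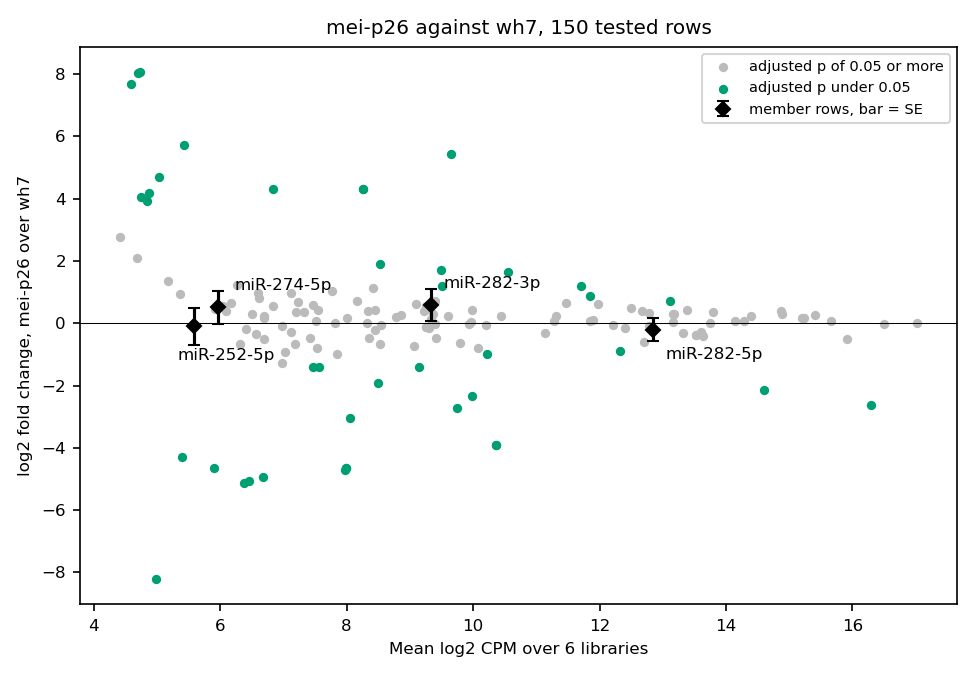
Log2 fold change of mei-p26 over wh7 against mean log2 CPM for the 150 tested rows, with rows at an adjusted p under 0.05 in green and the 4 member rows as black diamonds with SE bars. The members lie between -0.21 and 0.59, among rows that did not pass.

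After TMM scaling both arms of miR-282 put the libraries in the same order, except that w1118 replicate 2 and mei-p26 replicate 2 changed places. Both arms were highest in w1118 replicate 1 and lowest in mei-p26 replicate 1. Over the 6 libraries, log2 CPM of the 5p and 3p arms correlated with Pearson's r = 0.936, a description of arms cut from 1 hairpin in shared libraries. The 3p arm held 12.9% and 8.61% of mir-282 counts in w1118, with exact Clopper-Pearson 95% intervals of 11.6 to 14.4% and 7.18 to 10.2%. In the wh7 libraries the share was 5.37% and 5.53%, and in those of mei-p26 it was 7.14% and 9.85%. The wh7 libraries had the lowest shares, and their intervals, 3.97 to 7.08% and 4.54 to 6.65%, ended below those of both w1118 libraries. The mei-p26 shares lay on both sides of w1118 replicate 2.

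**Figure D4:**
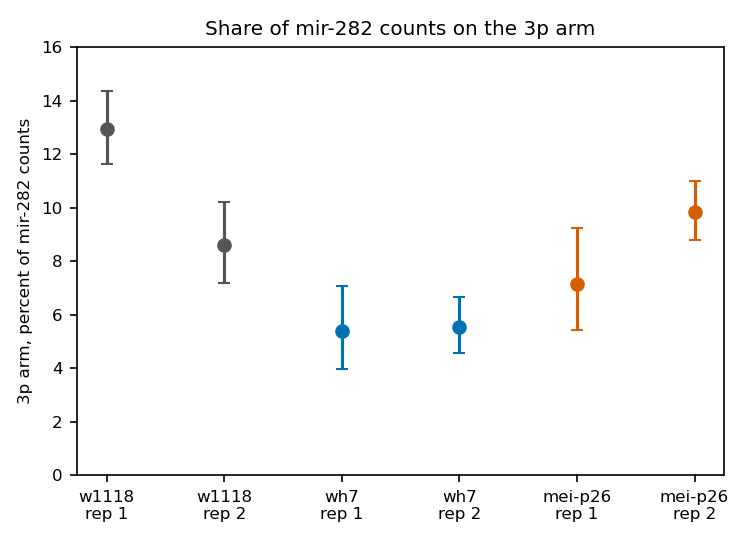
Share of mir-282 counts on the 3p arm in each library, in percent, with exact 95% Clopper-Pearson intervals as bars. The share is 5.37% and 5.53% in wh7 and 12.9% and 8.61% in w1118, with mei-p26 between 7.14% and 9.85%.

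miR-252-5p and miR-274-5p had nearly the same profile over the 6 libraries (r = 0.958 of log2 CPM), which mostly reflects the near absence of both in w1118. Their r with the 2 arms of miR-282 was from -0.68 to -0.51. Among the other 146 tested rows, those most like miR-252-5p were miR-996-5p (r = 0.960), miR-965-5p (0.954) and miR-1-3p (0.918). For miR-274-5p they were miR-9a-5p (0.970), miR-996-5p (0.960) and miR-1-3p (0.959). Each of these was lower in both w1118 libraries than in all 4 mutant libraries, by smaller steps than the members. That order follows largely from picking them by r to profiles that mostly separate w1118 from the mutants. Among all tested rows, the wh7 libraries were above both controls for 34% and the mei-p26 libraries for 36%. miR-996-5p was at 702 and 696 CPM in w1118 and between 1038 and 1242 CPM in the mutants. miR-965-5p had 11 counts in each control and 30 to 45 in the mutants. miR-9a-5p, which in flies limits the number of sensory organ precursors, was at 411 and 294 CPM in w1118 and between 806 and 1325 CPM in the mutants. The rows most like miR-282-5p followed it less closely: miR-276a-5p and miR-276b-5p, which hold the same counts in every library and so stand for 1 measurement (r = 0.859), and miR-304-3p (0.829), with at most 27 counts. miR-276a-5p was lowest in mei-p26 replicate 1, at 418 CPM, as miR-282-5p was, and highest in wh7 replicate 2, at 739 CPM, where miR-282-5p was not.

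**Figure D5:**
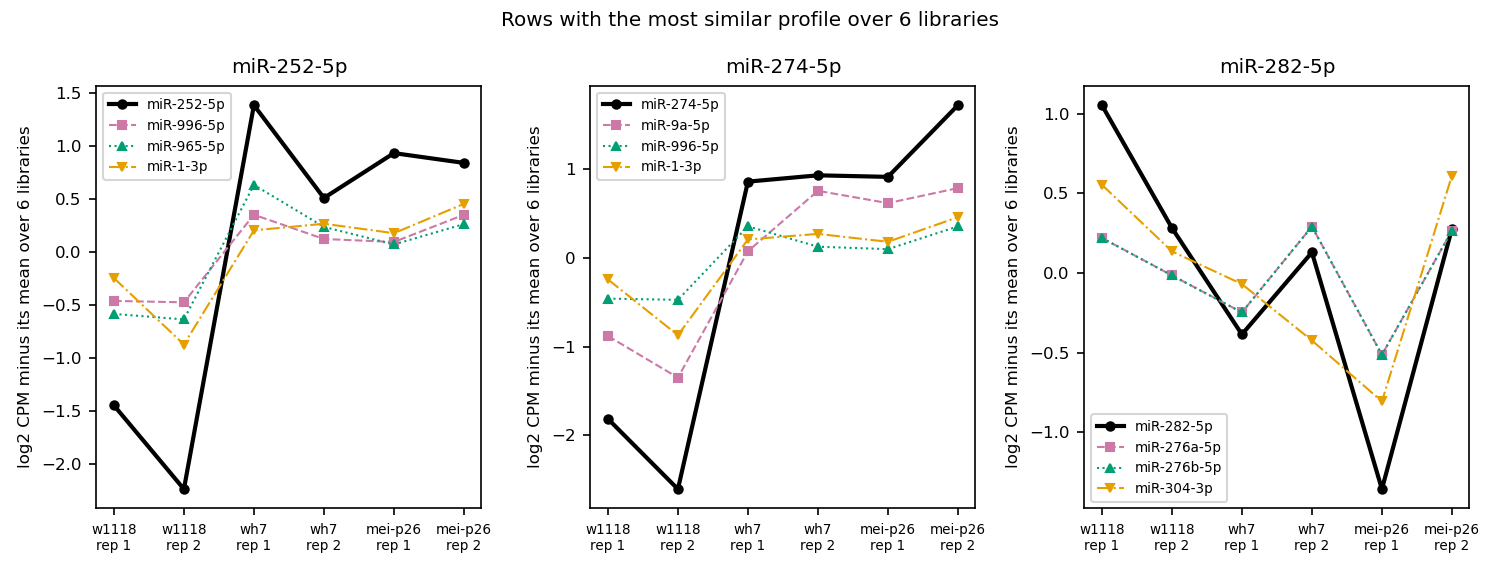
Log2 CPM minus its mean over the 6 libraries for miR-252-5p, miR-274-5p and miR-282-5p (black) and for the 3 rows with the highest Pearson r to each, with lines joining the values of a row. The rows beside miR-252-5p and miR-274-5p are low in both w1118 libraries and differ by less than the members, and those beside miR-282-5p share its low value in mei-p26 replicate 1.

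Companions of miR-252 as hormone-responsive and developmental timing miRNAs (let-7, miR-100, miR-125, miR-34, miR-8, miR-14) had 11 tested rows. In wh7 against w1118, 0 of them passed with edgeR, where 15.3% of all tested rows did, and likewise 0 with DESeq2 and with limma-voom. In edgeR 1 had an unadjusted p under 0.05, and their median log2 fold change was 0.06 beside 0.08 over all tested rows. In mei-p26 against w1118, 2 of 11 rose, where 34% of all tested rows passed in either direction, and the median was 0.10 beside 0.08 over all rows. With DESeq2, 1 of the 11 passed. They were miR-34-5p, known from ageing and brain maintenance, and miR-125-5p of the let-7 cluster, both named here because they make up that count. miR-34-5p was at 3892 and 5300 CPM in w1118 and 7318 and 8290 CPM in mei-p26, and miR-125-5p was at 1419 and 2345 CPM and 2839 and 3562 CPM. miR-34-5p failed to pass without any of w1118 replicates 1 and 2, wh7 replicates 1 and 2 and mei-p26 replicate 2, and miR-125-5p without mei-p26 replicate 2, w1118 replicate 1 or either wh7 replicate, with adjusted p reaching 0.266 and 0.427; over all 18 alternatives they lost the call under 8 and 10. The most abundant of the list, miR-14-3p, was at 73927 and 107272 CPM in w1118 and between 90365 and 96739 CPM in the mutants, with overlapping groups. miR-8-3p was at 78327 and 63654 CPM in w1118, 65493 and 73530 CPM in wh7, and 52451 and 45451 CPM in mei-p26, where it did not pass.

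Markers of other tissues were read beside the members, and their part in the result was not tested. Of the 8 rows of the nervous system list (miR-219, miR-210, miR-137 and miR-124), 0 reached the filter, 5 to 7 were at 0 in each group, and both arms of miR-124, the defining neuronal miRNA, had no count in any library. The summed level of that list was 7.47 to 14.3 CPM in w1118, 22.5 to 54.6 CPM in wh7 and 10.4 to 28.7 CPM in mei-p26; miR-137-3p and miR-210-3p held most of it. The muscle list (miR-1, miR-133) stood at 11001 to 16874 CPM in w1118, 23114 to 24097 CPM in wh7 and 22653 to 27629 CPM in mei-p26, so that both mutants were above the control as for miR-252-5p and miR-274-5p. Nearly all of this sum was 1 row, miR-1-3p, with 16829 of the 16874 CPM of w1118 replicate 1. Of its 4 rows 2 were tested, miR-1-3p and miR-1-5p. Of all tested rows, 15.3% passed in wh7 and 34% in mei-p26, in either direction. Only miR-1-3p passed, as higher in each mutant, while miR-133-5p was at 0 throughout. The untested miR-133-3p, with at most 3 counts per library, gave no such separation. Its control libraries lay at 22.4 and 7.17 CPM, and the mutants ranged from 6.83 to 13.5 CPM (wh7) and from 3.47 to 8.20 CPM (mei-p26). The miR-1-3p call was lost in both mutants when mei-p26 replicate 2, wh7 replicate 1 or w1118 replicate 2 was left out, and in wh7 also without wh7 replicate 2, with adjusted p reaching 0.543 for wh7 and 0.353 for mei-p26. It was also lost with upper-quartile scaling in both mutants, and in wh7 with RLE scaling, DESeq2, no filter or a mean count of at least 50. The gut and Malpighian tubule miRNA miR-281 went another way than the members. Its 3p arm is listed for 2 precursors with the same counts and is read here as 1 measurement. It was at 1912 and 2252 CPM in w1118, 3686 and 4274 CPM in wh7, and 230 and 302 CPM in mei-p26. The ovary list was at 375809 to 455255 CPM in w1118, 359466 to 379087 CPM in wh7 and 189748 to 235456 CPM in mei-p26, with miR-318-3p and miR-989-3p its most abundant rows. The lower sum in mei-p26 was not shared by the whole list. Against w1118, 3 of 9 tested rows passed as lower: miR-318-3p (log2 fold change -2.46), miR-994-5p (-2.40) and miR-994-3p (-2.94). Over all 150 tested rows, 19 passed as lower in that comparison. The rows of miR-994 are arms of 1 hairpin. The row miR-184-5p passed as higher (1.26), and miR-989-3p did not pass (-0.40, edgeR adjusted p = 0.192).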

How the data were processed

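Counts in the deposited table are whole numbers, 1 row for each mature miRNA of each precursor, and are raw per the file headers. The libraries were made with a QIAseq miRNA kit that adds molecular identifiers, per the labels' protocols; whether these were collapsed before counting is not stated, so PCR copies may be counted. The submitters' processing notes name bcl2fastq 2.20, Trimmomatic and BDGP5; for alignment, counting and miRNA annotation, no tool or release is given in the sources used here. CPM values from the authors match counts divided by column totals to within 0.005; no test used them. The authors' deposited signed fold changes and adjusted p-values come from a test that is not named.

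Counts of all 6 libraries entered 1 quasi-likelihood fit in edgeR 4.0.16 (R 4.3.3), with TMM scaling, rows kept by filterByExpr (minimum count 10) and Benjamini-Hochberg adjustment over 150 of 474 rows; a script was tested on simulated data first. SEs are approximate and were derived from the F statistics. Library totals were 144175 to 249262 counts, so that 3 counts equal at most 20.8 CPM before scaling. Columns headed W118 were taken as w1118. Likeness is Pearson's r of log2 CPM (prior count 2). The named rows are all rows of the 3 precursors, the 3 most alike rows for each main arm and rows from the lists. From each list, these are up to 2 rows and those named for its calls or summed level. Members and lists were chosen with earlier results of these data known. The alternatives comprised other scaling (RLE, upper-quartile, total-count), other filters (none, or mean counts from 50), other tools (limma-voom in limma 3.58.1, DESeq2 1.42.0), a replicate block, a fit of the compared genotypes alone, leaving out each library, 1 row per mature name and a threshold of 0.1. No sequences or coordinates are given, and companions by shared seed were not analysed here.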

Additional observations from a re-analysis of the deposited data

How the results depend on the processing

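Rows called in mei-p26 against wh7 numbered 41, and 26 with a mean count of at least 50; in wh7 against w1118 23, and 9 with that filter; in mei-p26 against w1118 51, and 26 with that filter. Fewer rows are tested there, and miR-252-5p and miR-274-5p are among those left out. With each library left out, the counts ran from 34 to 55, 10 to 30 and 34 to 59. Total-count scaling split the calls 23 higher and 19 lower in mei-p26 against wh7 and 17 and 3 in wh7; upper-quartile scaling gave 22 and 25 in mei-p26 against w1118. Against w1118 the 4 rows kept their signs under every alternative run. In mei-p26 against wh7, 0 passed under any alternative except miR-282-3p without mei-p26 replicate 1. There, total-count scaling moved the median of all rows by 0.19 and turned the signs of miR-252-5p (0.08) and miR-282-5p (0.00087), which relative to that median were at -0.24 and -0.32. With the replicate block the counts were 41, 26 and 50, and miR-282-5p in wh7 joined the calls. Same-numbered deviations correlated at -0.33 (w1118 and wh7), -0.02 and 0.09. With 2 libraries per genotype these values cannot settle whether the numbers pair the libraries. Exchanging the wh7 numbers, chosen after seeing the data, gave 44, 30 and 56 calls. Depth limits miR-252-5p and miR-274-5p most, with 1 count in w1118.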
